A study of Arabidopsis thaliana with 6 samples.

Results

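The 109 probe sets described here, of 22746 on the array, gave a higher signal in the unwounded leaves of wounded Arabidopsis thaliana plants than in the wounded leaves of the same treatment or in leaves of unwounded plants. They were chosen by their measured values: the mean of the 2 systemic arrays had to exceed the mean of the 2 control arrays and the mean of the 2 local arrays by at least 0.5 on the log2 scale each, and both systemic arrays had to lie above the other 4. Of 113 probe sets that met these conditions, the cell wall genes ATPMEPCRB, AT1G23205, EXPB1 and AT1G67750 were left out by name, with systemic minus control differences of 3.35, 1.76, 1.35 and 1.06. Of the 109 members, 63 have 1 listed gene each, 1 has several and 45 have none listed and are given by probe set number.

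The study measured transcripts in rosette leaves of ecotype Columbia (spelled Colombia in the labels), with no transgene or mutation named, on Affymetrix arrays with 1 array per leaf pool. Plants were 5 weeks old, and 3 leaves were wounded by clamping with tweezers over the midvein. After 10 min, local leaves (the wounded ones), systemic leaves (unwounded, on wounded plants) and control leaves (on plants with no wound) were harvested, each pool holding leaves from 3 plants, with 2 biological replicates per group and 6 arrays in all. Pools hide the spread between plants, and the labels call the systemic leaves neighbours of the wounded ones without giving their age or rank. Levels are log2 RMA values, so that a difference of 1 is a 2-fold difference, and changes in the number of cells of a type cannot be told apart from changes of RNA per cell.

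A wounded leaf is known to send fast electrical and calcium signals through the vasculature to leaves that share vascular connections with it, and these signals start jasmonate synthesis and defence gene expression at a distance. In the members the distant leaf was highest by choice, and the wounded leaf lay between the other groups, level with control, or below it.

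The arrays had the signal of leaf tissue. The photosynthesis genes RCA, LHCB4.1 and LHCB4.2 lay between 14.09 and 14.61 on the 6 arrays, and the root hair expansin genes EXPA7 and EXPA18 between 4.46 and 5.16, below the median of 6.26 over all probe sets. The local arrays had the lowest 3' minus 5' difference of ubiquitin (0.97 and 1.05, against 1.23 to 1.33 on the other 4), and control replicate 2 the lowest poly-A spike mean (7.45, against 7.75 to 8.52). The systemic arrays lay within the range of the other arrays in the first measure and between those of the control arrays in the second. Systemic replicate 1 had the highest GAPDH 3' minus 5' difference (1.503, against 0.97 to 1.28 on the other 5 arrays). The actin 3' minus 5' differences were larger on all 6 arrays, from 3.51 in control replicate 2 to 3.97 in control replicate 1. The part of these measures in the results below was not tested.

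Differences of the members were mostly modest. Systemic minus control ran from 0.50 to 2.00 with a median of 0.73 (1.66-fold), against a median of -0.02 over all probe sets, and 23 members reached 1. Systemic minus local ran from 0.51 to 2.16 with a median of 0.74, and 25 members reached 1. In 3 members, the unnamed probe sets 263595_at, 265837_at and 257382_at, both differences were at least 1. The arrays of a group lay far apart in 2 of them. In 257382_at, which gave the 2.16, the local arrays read 6.50 and 8.93. In 265837_at the systemic arrays read 10.10 and 9.20, with control replicate 2 at 8.81. Since these differences chose the members, they carry no test here. In the limma fit over all probe sets, 85 members were among the 4.73% of probe sets called above control (adjusted p under 0.05), 92 among the 4.93% called above local, and 76 in both, counts that the choice largely fixes.

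**Figure D1:**
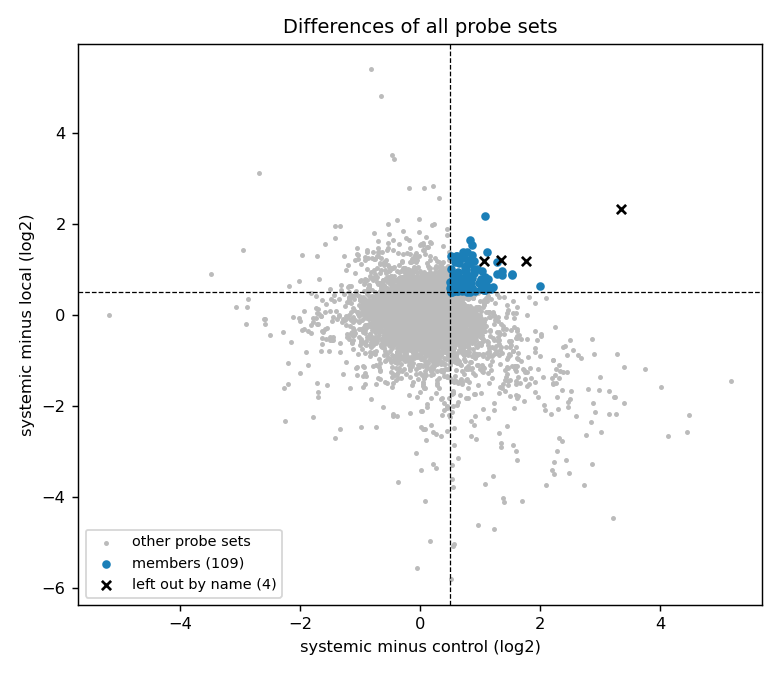
Each point is a probe set, with its systemic minus control difference on the horizontal axis and its systemic minus local difference on the vertical axis (both log2, means of 2 arrays); dashed lines mark the thresholds of 0.5. The 109 members (blue) fill the upper right corner and thin out above 1 on either axis, and the 4 genes left out by name (crosses) lie on its outer side.

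The thresholds cut through a continuum. Just inside the control threshold lay AT5G47550 at 0.502 and GPDHp, which encodes a plastid glycerol-3-phosphate dehydrogenase, at 0.505, and just outside it the unnamed probe sets 260141_at and 250561_at at 0.497 and 0.492. Just inside the local threshold lay SP1L4 and ATCSLC08, both at 0.506, and just outside it AT1G22330 and AT1G13650 at 0.499 and 0.493. With thresholds of 0.4 there would be 192 members. The lowest systemic array stood above the highest other array by 0.41 in the median member, by at least 0.5 in 30 members and by less than 0.1 in AT1G78410 and EXLB1.

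Before names were left out, 113 probe sets were highest in systemic leaves by these thresholds and 115 were lowest there, or 0.497% and 0.506% of the table. By the same rule 838 were highest and 637 lowest in local leaves, and 836 were lowest and 574 highest in control leaves.

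To read the pattern on arrays that did not choose it, probe sets were chosen on the replicate 1 arrays alone (systemic above control and above local by 0.5) and then read on the replicate 2 arrays. Of 174 so chosen, 45 met both thresholds on the replicate 2 arrays, or 25.9%, where 0.558% of all probe sets did. Their median systemic minus control difference was 0.76 on the arrays that chose them and 0.57 on the others, and their median systemic minus local difference was 0.77 and 0.40. In the other direction 127 were chosen, and the same 45 (35.4%) met the thresholds by construction, so that this is no second check. These 45 were 41 of the members and the 4 genes left out by name. That they fell there was largely fixed, since meeting both thresholds in each pair means meeting them as means. The other 68 members met the rule as means without meeting it in each replicate pair.

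**Figure D2:**
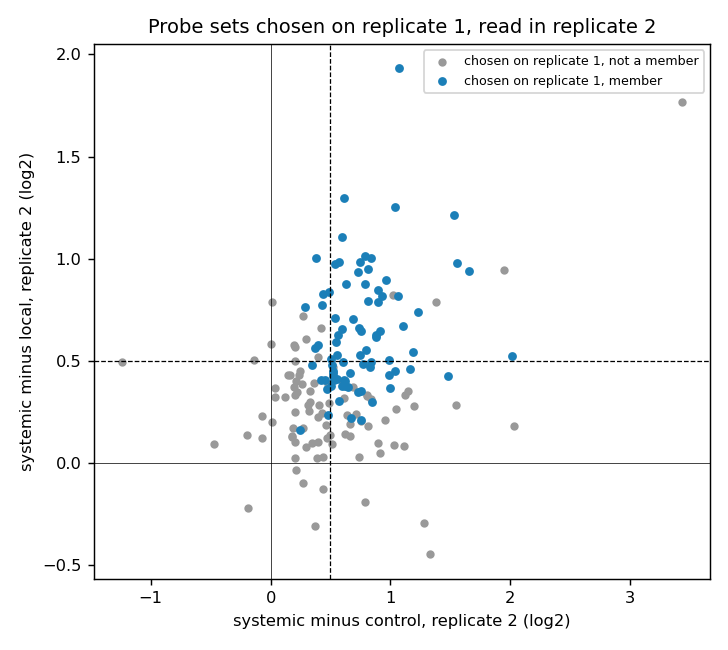
The 174 probe sets chosen on the replicate 1 arrays are plotted by their systemic minus control (horizontal) and systemic minus local (vertical) differences on the replicate 2 arrays, in log2, with dashed lines at 0.5 and solid lines at 0. Blue points are the 82 members among them, and the 45 in the upper right corner met both thresholds again.

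CHIL, a chalcone isomerase-like protein that enhances flavonoid synthesis without being an isomerase itself, had the largest systemic minus control difference among members with a gene. Its level was 8.03 and 8.15 on the control arrays, 9.25 and 9.64 on the local arrays and 10.01 and 10.17 on the systemic arrays. The groups did not overlap, with the wounded leaf between the others. CHIL rose in the wounded leaf as well, by 1.36 ± 0.14 (SE, limma, adjusted p = 0.00042), which was 2.56-fold. Of 29 flavonoid symbols listed after CHIL had been seen, 5 besides it were matched by name to a probe set with 1 listed gene. The others may be on the array without a matched name, so these 5 do not stand for the pathway. UGT78D1, a flavonol glycosyltransferase, rose in systemic leaves by 0.77 ± 0.13 (limma, adjusted p = 0.0097) and differed from local leaves by 0.12 ± 0.13 (adjusted p = 0.67). UGT78D2, of the same family, was lower in systemic than in local leaves by 0.52 ± 0.09 (SE, limma, adjusted p = 0.013). DFR, BAN and UF3GT were called in neither systemic comparison, but their systemic minus control differences were negative, at -1.73, -0.22 and -0.36. For DFR the standard error was 0.48 (limma, adjusted p = 0.068), with control arrays at 5.34 and 7.19. DFR fell in local leaves by 1.89 ± 0.48 (SE, limma, adjusted p = 0.024).

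Receptor-like and related kinases, which sense signals at the cell surface or pass them on, were 7 of the members grouped by role. AT5G59670, a receptor-like kinase with leucine-rich repeats, read 7.03 and 7.10 in control, 7.63 and 7.69 in local and 8.43 and 8.14 in systemic leaves. These values form 3 steps without overlap, and the step from control to local passed the test (0.60 ± 0.12 SE, limma, adjusted p = 0.0080). AT1G11330, a lectin-domain receptor kinase, went the other way at the wound, with 7.30 and 7.23 in control, 6.37 and 6.79 in local and 7.98 and 7.76 in systemic leaves. It fell in local leaves by 0.68 ± 0.15 (SE, limma, adjusted p = 0.012), a call lost without control replicate 1 or local replicate 1 (adjusted p = 0.056 and 0.072). The systemic minus control difference of the other 5 kinases (AT2G23200, AT3G57700, AT1G16670, AT3G19300 and AT5G41180) lay between 0.53 and 0.82. AT2G23200 belongs to the CrRLK1L family, known for sensing the cell wall, and read 8.17 and 8.04 in control, 8.24 and 8.28 in local and 8.96 and 8.84 in systemic leaves.

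Intracellular immune receptors of the TIR-NBS-LRR class, which recognise pathogen effectors, were represented by AT4G36150, AT5G36930 and AT5G11250. AT4G36150 read 7.28 and 7.37 in control, 6.31 and 7.12 in local and 8.21 and 8.0 in systemic leaves. Both local arrays lay below control, but they differed from each other by 0.81. The local difference of -0.60 ± 0.23 (SE) did not pass (limma, adjusted p = 0.10). Without local replicate 2 it was -1.01. Without local replicate 1 only the local value of 7.12 remains, against a control mean of 7.32, so that the size of the fall rests on local replicate 1. In AT5G36930 and AT5G11250 the local and control arrays overlapped, and the systemic arrays were 0.60 to 0.67 above either group. These gene families have many similar members, and probe sets may take up signal from near copies.

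Genes of secreted and defence-related proteins included the class of chitinases, which digest fungal walls, with AT4G01700 and AT1G02360. AT4G01700 read 5.70 and 6.04 in control, 4.90 and 5.42 in local and 6.51 and 6.42 in systemic leaves, and AT1G02360 read 5.59 and 5.65, 5.15 and 5.51, and 6.28 and 6.46. Both had the order systemic, control, local with no overlap of groups. AT4G01700 fell in local leaves by 0.71 ± 0.18 (SE, limma, adjusted p = 0.024), a call lost without control replicate 2 or local replicate 1 (adjusted p = 0.12 and 0.14), and AT1G02360 differed by -0.29 ± 0.13 (limma, adjusted p = 0.18). AT3G54400, an aspartyl protease, was among the brighter members, at 9.97 and 9.94 in control, 8.98 and 9.41 in local and 10.34 and 10.62 in systemic leaves. It fell in local leaves by 0.77 ± 0.15 (SE, limma, adjusted p = 0.0095, and 0.058 without local replicate 1). The subtilase gene AT2G39850 had the opposite placing of the wounded leaf, with 6.57 and 6.48 in control, 7.02 and 6.86 in local and 7.17 and 8.05 in systemic leaves, but its systemic arrays were 0.88 apart. The remaining 5 of these 9 genes, of which AT5G47550 encodes a cystatin and AT1G55210 a dirigent protein, had local minus control differences between -0.12 and 0.31, none of them called.

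Cell wall genes remained among the members after the 4 named ones had been left out. EXLB1, an expansin-like protein, read 6.94 and 6.81 in control, 7.19 and 7.46 in local and 7.52 and 8.42 in systemic leaves, so that only systemic replicate 2 stood clear of the local arrays. GH9B8, a glycosyl hydrolase of the endoglucanase family, read 6.55 and 6.69, 5.85 and 6.48, and 7.25 and 7.73. XTH16, a xyloglucan endotransglucosylase, read 8.45 and 8.25, 8.38 and 8.50, and 8.95 and 9.32, with the local arrays inside or next to the control range. ATCSLC08, a cellulose synthase-like protein, and AT4G34480, a glycosyl hydrolase of the beta-1,3-glucanase family, exceeded both groups by 0.51 to 0.54.

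Relatives of these wall genes were read in the same fit. By group means alone, systemic leaves were highest in 1 of 3 EXLA genes, 1 of 8 other XTH genes and 5 of 14 other glycosyl hydrolase 9 genes. The EXLA gene was EXLA2, where the systemic mean was above the local mean by only 0.0045. EXPA4 and EXPB3, the 2 genes matched by name from a list set up for wall genes, also had their highest mean in systemic leaves. The share of all probe sets with this order was not counted, so these counts cannot be read as high or low. The expansin-like genes EXLA1, EXLA2 and EXLA3 all rose in both leaves, by 2.40, 1.78 and 1.06 in local and 1.47, 1.79 and 0.43 in systemic leaves (limma, adjusted p under 0.05), and EXLA1 and EXLA3 were lower in systemic than in local leaves by 0.93 and 0.63. Of 8 other XTH genes measured, XTH32 rose in systemic leaves (0.76) and to a like level in local leaves (0.69), and none was called above local by limma (0 of 8 at an unadjusted p under 0.05). Of 14 other glycosyl hydrolase 9 genes none was called in either systemic comparison by limma, and at an unadjusted p under 0.05 there were 1 above and 1 below control and 3 above local. Several of these relatives were dim. GH9A4, GH9B6, GH9B11, GH9B16, GH9C1, XTH21 and XTH29 read 3.56 to 4.41 on the 6 arrays, where the lower quartile was 4.44. Since RMA compresses dim differences, the missing calls in these genes say little. The expansin gene EXPB3, of a list set up for wall genes, was above local by 1.03 ± 0.135 (SE, limma, adjusted p = 0.0042) but differed from control by 0.43 ± 0.135 (limma, adjusted p = 0.10).

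**Figure D3:**
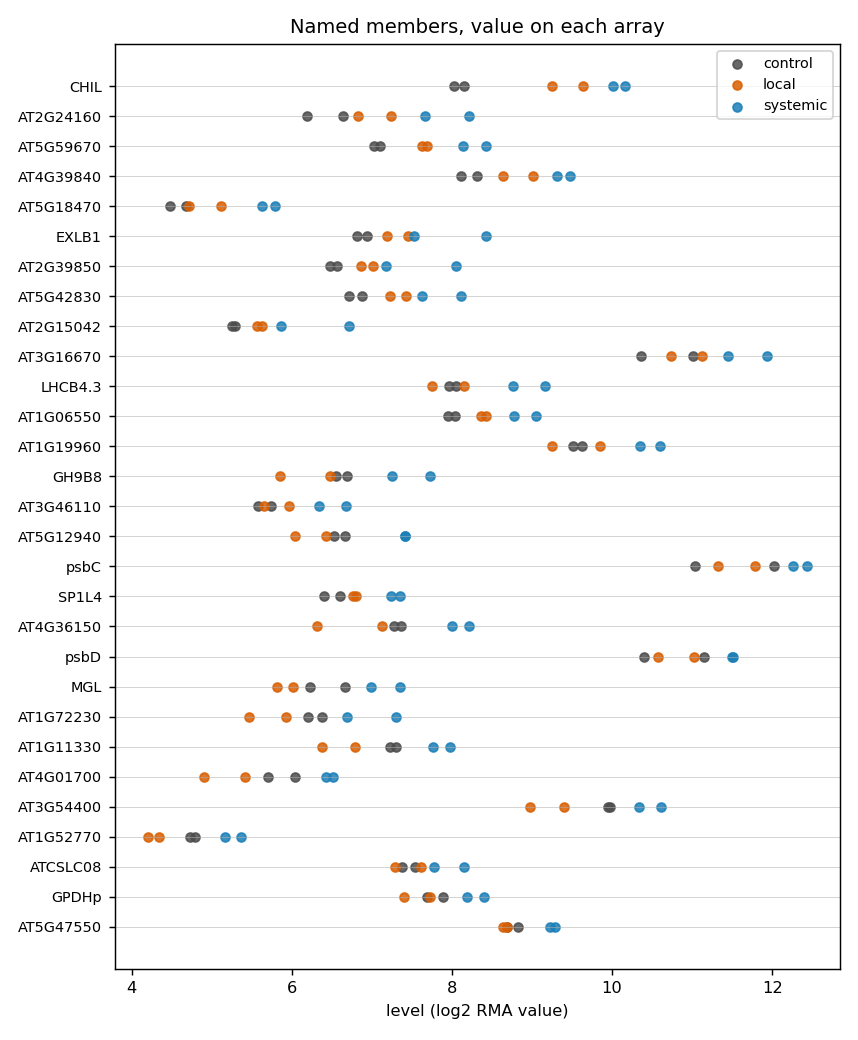
Each row is 1 of the 29 members named by a fixed rule, ordered by systemic minus control, and each point is the log2 RMA level on 1 array (2 control in grey, 2 local in orange, 2 systemic in blue). The systemic points lie to the right in every row, as the rule requires, while the local points lie between the other groups in the upper rows (CHIL, AT5G59670) and left of control in several lower ones (AT1G11330, AT3G54400).

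Photosystem II was represented by a nuclear antenna gene and a pair of plastid genes. LHCB4.3, a form of the minor antenna protein CP29, read 8.05 and 7.97 in control, 8.15 and 7.75 in local and 9.17 and 8.76 in systemic leaves, about 1 above either group. LHCB4.1 and LHCB4.2, the other CP29 genes measured, differed by -0.02 and -0.01 from control. They read 14.09 to 14.28 on the 6 arrays, among the brightest signals, and whether those signals were saturated was not tested. The plastid genes psbC and psbD, which encode the core proteins CP43 and D2 and are neighbours in the gene order, were the only adjacent pair among the 63 members with a gene. For psbC the values were 12.02 and 11.04 in control, 11.32 and 11.78 in local and 12.25 and 12.44 in systemic leaves, and for psbD 11.15 and 10.40, 10.58 and 11.02, and 11.50 and 11.51. Control replicate 1 lay close to the systemic arrays and control replicate 2 far below, so that the systemic minus control differences of 0.82 and 0.73 became 0.33 and 0.36 without control replicate 2. psbB, not a member, also read higher in control replicate 1 than in control replicate 2 (11.24 and 9.88). Of the other 67 plastid-encoded genes measured, with a median systemic minus control difference of 0.06 and a range from -0.40 to 0.46, 1 was called above control and 2 above local. Labelling from the 3' end of poly-A RNA captures plastid transcripts poorly, so that these levels are less secure.

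Cytoskeletal members were ACT11, an actin, SP1L4, of the SPIRAL1 family of microtubule proteins, and TRM22, of a family that recruits proteins to microtubules. TRM22 read 6.31 and 6.21 in control, 5.83 and 6.04 in local and 6.99 and 7.04 in systemic leaves, with the lowest systemic array 0.68 above the highest other one. ACT11 read 8.47 and 8.52, 8.39 and 8.50, and 8.95 and 9.14, with local and control overlapping. SP1L4 had a local mean above control by 0.28 ± 0.10 (SE, limma, adjusted p = 0.096). Its relatives SPR1 and SP1L3 fell in local leaves by 0.49 and 0.65 (limma, adjusted p = 0.029 and 0.0041).

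Nuclear regulators were few and their differences small. BZIP61, a bZIP transcription factor, read 9.04 and 8.95 in control, 8.53 and 9.06 in local and 9.52 and 9.57 in systemic leaves, and ULT1, a trithorax-type regulator of floral meristems, 8.03 and 7.74, 7.76 and 7.58, and 8.50 and 8.32. AT3G61950, a bHLH factor, had systemic values of 5.80 and 5.73, above the 4.86 to 5.34 of the other arrays. Of 6 other BZIP genes, BZIP34, BZIP53 and BZIP60 were called above control in systemic leaves by limma and none above local (1 of 6 at an unadjusted p under 0.05). In metabolism, MGL, methionine gamma-lyase, read 6.66 and 6.23 in control, 5.82 and 6.01 in local and 6.99 and 7.35 in systemic leaves. AT5G42830, an acyltransferase of the HXXXD type, read 6.72 and 6.88, 7.23 and 7.42, and 8.11 and 7.63.

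The other members named by rule include AT2G24160, annotated as a transcribed pseudogene, which read 6.64 and 6.19 in control, 6.83 and 7.24 in local and 8.22 and 7.67 in systemic leaves. AT5G18470, AT4G39840 and AT2G15042 had the same stepwise order. AT1G72230, AT5G12940 and AT1G52770 were lower in local than in control on both arrays. AT3G16670, AT1G19960 and AT3G46110 had overlapping local and control arrays. The widest separation belonged to an unnamed probe set, 263595_at, at 7.41 and 7.13 in control, 7.34 and 7.44 in local and 8.45 and 8.66 in systemic leaves, where every systemic value was at least 1.01 above the others.

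Local against control was the remaining comparison of groups, and the choice of members limits it from above: local minus control cannot exceed systemic minus control less 0.5. The median over members was -0.02 (range -1.08 to 1.36), against -0.04 over all probe sets. Both local arrays lay above both control arrays in 22 members (20.2%, against 23.5% of all probe sets) and below them in 24 (22.0%, against 35.8%), and the groups overlapped in 63. By limma 15 members were called (13.8%, against 23.6% of all probe sets), 7 of them higher (9.92% of all were higher) and 8 lower (13.7% of all were lower). These shares of calls lay below those of the whole array. The median standard deviation of the local arrays was 0.22 in members, against 0.08 over all probe sets, and its part in these shares was not tested.

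The 4 higher calls with a gene were CHIL, AT5G59670, AT4G39840 (0.62 ± 0.14 SE, limma, adjusted p = 0.017) and AT1G06550 (0.40 ± 0.11, adjusted p = 0.037). The 4 lower ones were AT3G54400, AT1G11330, AT1G52770 (-0.49 ± 0.11, limma, adjusted p = 0.013) and AT4G01700. CHIL and AT5G59670 were called whichever array was left out. AT4G39840 was not called without control replicate 1 or local replicate 2 (limma, adjusted p = 0.085 and 0.091), AT1G52770 not without control replicate 1 or local replicate 1 (0.058 and 0.097), and AT1G06550 not without any one of the control or local arrays (0.073 to 0.15). The local mean of AT1G52770 lay under the lower quartile of all probe sets.

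**Figure D4:**
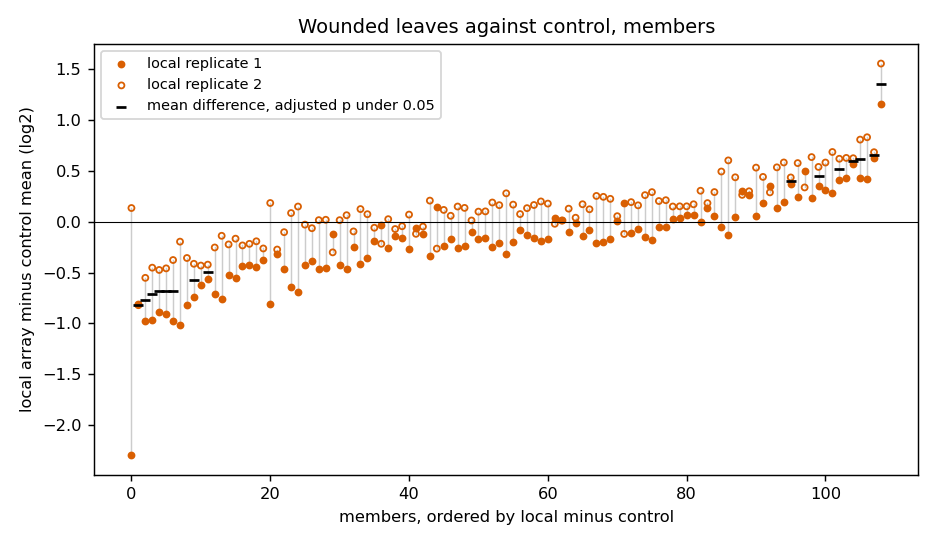
The 109 members are ordered along the horizontal axis by local minus control; the vertical axis gives each local array minus the control mean in log2, with filled points for replicate 1, open points for replicate 2 and black dashes at the mean of the 15 members called by limma. The open points lie above the filled ones in 98 members, and the member at the far left, 257382_at, has its replicates 2.43 apart.

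The local arrays differed from each other in these genes. Local replicate 2 read higher than local replicate 1 in 98 of 109 members (89.9%), with a median difference of 0.31, against 51.6% and a median of 0.01 over all probe sets. The rule treats both local arrays alike, so that it does not set this direction. In control leaves replicate 2 was higher in 57 members and in systemic leaves in 48, with medians of 0.02 and -0.02. The direction was not particular to the members: among 1026 other probe sets called above local in systemic leaves, local replicate 2 was the higher in 79.3%, with a median difference of 0.13.

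Examples of this difference were GH9B8 (5.85 and 6.48), AT4G36150 (6.31 and 7.12), BZIP61 (8.53 and 9.06) and AT1G19960 (9.26 and 9.85), in each of which local replicate 2 came close to control or above it. In 257382_at the local arrays read 6.50 and 8.93 beside 8.73 and 8.86 in control and 9.93 and 9.83 in systemic leaves. LHCB4.3 and AT1G67850 had the largest differences in the opposite direction (-0.41 and -0.30). Local replicates 1 and 2 had ubiquitin 3' minus 5' differences of 0.97 and 1.05, GAPDH differences of 1.28 and 1.03 and poly-A spike means of 8.49 and 8.41, and whether these moved the members was not tested.

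**Figure D5:**
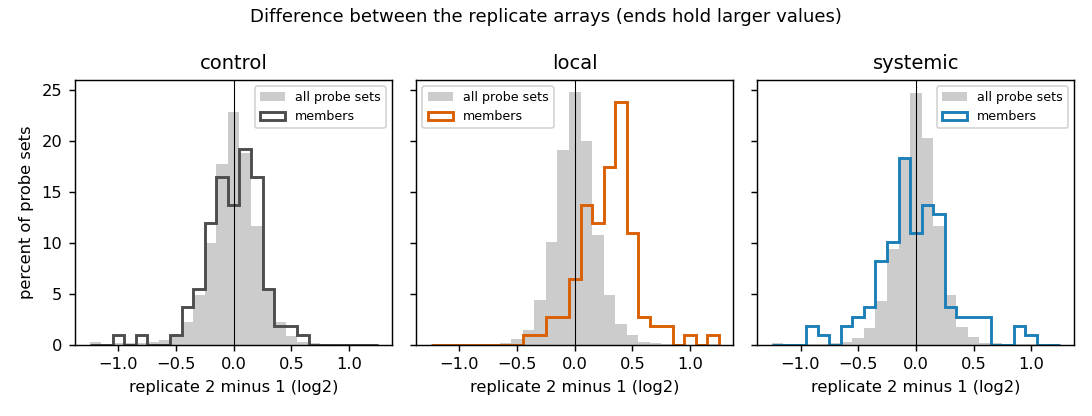
Each panel shows the difference between the 2 arrays of a group (replicate 2 minus replicate 1, log2, horizontal axis) as percent of probe sets (vertical axis), for all probe sets in grey and the 109 members as a coloured line, with larger values placed in the end bins. The member line is centred near 0 in control and systemic leaves (medians 0.02 and -0.02) and shifted to 0.31 in local leaves.

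Membership depended on single arrays. Without local replicate 1, 75 probe sets met the rule, 73 of them members. Without local replicate 2 the count was 145, with 106 of the members. Without systemic replicate 1 or 2, when 1 array stood for the distant leaf, it was 174 and 135, with 94 and 89 of the members. The systemic arrays differed by over 0.5 in 12 of the 109 members, against 2.11% of all probe sets, most in AT1G78410, a VQ-motif protein gene, at 4.43 and 5.40, next in EXLB1, and by 0.85 in AT2G15042 (6.71 and 5.86).

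The members were spread over expression levels and chromosomes. Their systemic means ran from 4.91 to 12.94, and the median member stood at 7.31 in control leaves, above the median of 6.26 over all probe sets. The means of AT1G78410 in control, and of 4 members in local leaves, were below the lower quartile, and no systemic mean was. Of the members with a gene, 16 lie on chromosome 1, 10 on 2, 14 on 3, 6 on 4, 15 on 5 and 2 in the plastid, where chromosomes 1 to 5 hold 25.7%, 16.3%, 20.4%, 14.5% and 22.3% of all probe sets with 1 gene.

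Lists of hormone, light, clock, wall and cell type genes gave no further members. Of 323 listed symbols in 22 lists, 43 were matched by name to a probe set with 1 listed gene, and none of these was a member. The unmatched symbols and the 45 members with no listed gene could not be compared. With 109 members among 22746 probe sets, a set of 43 would rarely hold one, so this absence says little. By limma 5 of the 43 were called above control in systemic leaves (HYH, JMT, OPCL1, ORA47 and WRKY53) and 2 above local (EXPA8 and EXPB3), none in both. Over all probe sets 4.73% were called above control and 4.93% above local. The mitotic kinase genes AUR1, AUR2 and AUR3 were the markers of dividing cells matched by name (3 of 18 listed). They fell in systemic leaves by 0.67, 0.79 and 0.41 (limma, adjusted p under 0.05) and in local leaves too. The sum of their log2 levels was 16.9 to 17.3 on the control, 14.5 to 14.6 on the local and 15.2 on the systemic arrays. Whether the share of dividing cells bears on the members was not tested.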

How the data were processed

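RNA from leaf pools (6 µg per sample, one-cycle 3' amplification, per the labels' protocols) was hybridised to Affymetrix arrays. The deposited values are log2 expression values that the authors made with RMA in Affymetrix Expression Console, as the submitters' processing notes record; the version is not given in the sources used here. RMA forces equal distributions of probe intensities on the arrays before it sums them into probe sets, and it compresses dim differences. The probe set medians of the arrays ran from 6.22 to 6.29. No detection calls were used here. Array control features (64) were dropped, and 22746 probe sets were tested unfiltered. Names came from the platform annotation and a TAIR10.1 gene table (13513 probe sets with 1 gene, 503 with several, 8730 with none listed; 13436 matched by Entrez number, 48 by locus, 29 kept the platform name); gene families are background knowledge.

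limma 3.58.1 in R 4.3.3 fitted a mean per group over all 6 arrays (3 residual, 4.85 prior degrees of freedom), two-sided, with Benjamini-Hochberg adjustment over all probe sets, a threshold of 0.05, and moderated standard errors. It was run on simulated data with 200 probe sets changed in the local arrays alone, which does not bear on the systemic comparisons. Figures used matplotlib 3.10.9. The number of arrays limits precision. The members and lists were chosen with earlier results of these data known. Named by rule were the 15 largest systemic minus control and 8 largest systemic minus local differences among members with 1 gene, up to 12 members called in local against control, members sharing a symbol stem, and those next to a threshold (29 genes); other members were named by role after their values were seen. Alternatives were a replicate block, median centring, cyclic loess, filters at the 25th percentile and median, trended and robust moderation, 4 arrays per fit, and each array left out.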

Additional observations from a re-analysis of the deposited data

Results flagged for a closer look

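In 9 members named by rule, both systemic arrays lay above both control arrays while both local arrays lay below them, so that the leaves of wounded plants differed from control in opposite directions. The systemic side was fixed by the choice of members, and the naming rule favours low local values, since it takes large systemic minus local differences and local calls. Over all members both local arrays lay below both control arrays in 24 (22.0%), against 35.8% of all probe sets, and the difference between the directions was not tested. The local minus control differences were -0.77 in AT3G54400, -0.71 in AT4G01700, -0.68 in AT1G11330, -0.60 in AT4G36150, -0.59 in AT1G72230, -0.53 in MGL, -0.49 in AT1G52770, -0.45 in GH9B8 and -0.36 in AT5G12940. Of these, AT3G54400, AT4G01700, AT1G11330 and AT1G52770 passed the limma test in local against control. In each of them local replicate 1 read below local replicate 2, and the call was lost without local replicate 1, as given above.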

How the results depend on the processing

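The number of members was 192 with thresholds of 0.4 and 3 with thresholds of 1, and between 75 and 174 when each array was left out in turn. It was 100 after median centring and 98 after cyclic loess, with 98 and 91 of the members kept. With each array left out, the calls over all probe sets numbered 787 to 1581 in systemic against control (1911 with all arrays, and 787, 1081 and 1246 without systemic replicate 1, systemic replicate 2 or control replicate 1), 558 to 2329 in systemic against local (2206, and 558, 1186 and 780 without local replicate 1, systemic replicate 1 or systemic replicate 2) and 2823 to 5040 in local against control (5374, and 2823 without local replicate 1). Members called in local against control numbered 8 to 20 (15 with all arrays, and 9 and 8 without control replicate 1 or local replicate 1). Where a group kept 1 array, it was assumed to vary like the others. The median local minus control over members was -0.16 to 0.13 with each array left out, and 0.02 and 0.06 after median centring and cyclic loess. No named member's difference in a systemic comparison changed sign, which the choice of members largely fixes. Replicate numbers came with correlations of replicate deviations of 0.14 (control, local), 0.02 (control, systemic) and 0.20 (local, systemic). These values cannot show whether samples of the same number were paired, and the main fit used no pairing. With the replicate block 2207, 2546 and 5702 probe sets were called in the 3 comparisons and 19 members in local against control. Dim signals limit what can be seen below the lower quartile.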
